A study of Mus musculus with 22 samples.

Results

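The genes described here encode enzymes of heme synthesis: Alas2, Alas1, Alad, Uros, Urod, Cpox, Ppox and Fech. They are 8 of the 37991 genes in the count tables and were chosen by name, not by a measured value, though with earlier results of these data known. Their mRNA was read in 6 RNA-seq libraries of E14.5 liver, and the methylation of their start sites and gene bodies in 12 whole-genome bisulphite libraries. The study asked which loci depend on Rlf (Rearranged L-Myc Fusion), a zinc finger protein identified as a modifier of epigenetic silencing.

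All animals were of an inbred FVB/NJ line that carries a GFP transgene array driven by alpha-globin promoter sequence of human origin with its HS-40 enhancer, in both genotypes. The mutants were homozygous for MommeD28, an ENU-induced null allele of Rlf, and the controls were wild-type at Rlf. Bisulphite libraries came from E10.5 whole embryos, all male, from E14.5 livers, with replicate 1 male and replicate 2 female in each genotype, and from E18.5 livers, all female. Each of these tissues has 2 wild-type and 2 mutant libraries, and the E14.5 livers were littermates. RNA-seq was of 3 wild-type and 3 mutant E14.5 livers, with replicates 1 and 2 male and replicate 3 female in each genotype. Stage, tissue and sex therefore change together between the E10.5 embryos and the livers, and stage and sex between E14.5 and E18.5.

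Heme is made from glycine and succinyl-CoA in a chain of enzymes that starts and ends in the mitochondrion and passes through the cytosol. The first step is rate-limiting and is run by the ubiquitous ALAS1 in most cells and by the X-linked ALAS2 in erythroid cells, where heme is needed for haemoglobin. At E14.5 the fetal liver is the main site of definitive erythropoiesis, whereas hepatocytes, which use heme for cytochromes, take up a growing share of the organ towards birth. DNA methylation at CpGs is low at most CpG-rich start sites, high along gene bodies and often low at enhancers of the cell type in which they act.

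In mm9, Alas2 lies on chromosome X from 146981918 to 147005181, Alas1 on chromosome 9 from 106135786 to 106150457, and Alad and Urod on chromosome 4 from 62170203 to 62180952 and from 116662570 to 116667018. Uros lies on chromosome 7 from 140877926 to 140901755, Cpox on chromosome 16 from 58670321 to 58680504, Ppox on chromosome 1 from 173206121 to 173211317, and Fech on chromosome 18 from 64616204 to 64648720. Alas2 and Cpox are read from the plus strand and the other 6 from the minus strand. Counting did not use strand, and some exon bases are shared with genes on the opposite strand: 791 bases of Ppox with B4galt3, 311 of Alas2 with Apex2, whose annotated span covers all 23264 bases of Alas2, and 114 of Alas1 with a long non-coding RNA. Reads from those bases cannot be assigned to one gene or the other.

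The 8 genes together took 0.601 to 0.747% of the counts of a liver. The RNA-seq libraries held 12,928,313 to 14,621,004 counts each. The bisulphite libraries held 319,866,478 to 363,002,202 reads over CpGs for whole embryos, 628,996,114 to 710,952,704 for livers of E14.5 and 346,349,747 to 357,281,665 for those of E18.5, and 0.0412 to 0.0775% of cytosines in the unmethylated lambda control were read as methylated. Rlf mRNA was not lower in the mutants (67.6 to 79.8 CPM, counts scaled by library total and TMM factor, against 68.9 to 72.3 in wild-type, edgeR adjusted p = 0.646), so its level does not check the genotype labels. In the erythroid list 11 of 13 markers were tested, and none of them was at 0 in any liver.

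Levels between genes were compared as RPKM, CPM per kilobase of exon, over all 6 livers. Alas2 stood highest with a mean of 610 RPKM, followed by Cpox at 534, Alad at 534, Fech at 491, Urod at 220, Uros at 53.1, Ppox at 35.3 and Alas1 at 10.7. The ranges of the first 4 overlapped from each to the next. Within a liver Alas2 was above Cpox, and Alad above Fech, in 6 of 6, but Cpox was above Alad in only 4 of 6, so the order of these 2 was not resolved. From Fech downwards each gene was above the next in 6 of 6 livers with no overlap. Exon length here joins all annotated transcripts, those with retained introns included. It is 4515 bases for Ppox and 2591 for Urod, beside 1431 and 1101 coding bases. A bias from this length would be the same in every liver, and its part in the order was not tested. Fech, which inserts iron into protoporphyrin, was 2.23 times Urod, and Ppox was 3.31 times Alas1. The erythroid and the ubiquitous first enzyme stood at opposite ends of this order of levels: Alas2 was 43.5 to 78.2 times Alas1 in wild-type livers and 50.7 to 59.7 times in mutant livers.

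No heme synthesis gene was called different between genotypes at the mRNA level. In edgeR's quasi-likelihood test 0 of 8 were called at an adjusted p under 0.05, where 197 of 14183 genes tested were called (1.39%). None of the 8 had an unadjusted p under 0.05 either, beside 2071 of all genes tested, and DESeq2 called 0 of 8, beside 256 of 14578. Fold changes of the 8 ran from -0.15 to 0.00 on the log2 scale with a median of -0.05, beside a median of 0.00 over all genes. With the replicate number as a block, which pairs these livers by number though no label does, 466 genes were called and still 0 of 8.

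Of the first-step genes, Alas2 had the widest spread among wild-type livers of all 8 (1.49-fold) and Alas1 the narrowest (1.2-fold). Alas2 stood at 1838, 1232 and 1563 CPM in wild-type and at 1400, 1304 and 1463 CPM in mutant livers. All mutant values fell between the lowest and the highest wild-type liver. The log2 fold change was -0.15 ± 0.11 (SE, n = 3 per genotype), with an edgeR adjusted p of 0.593. Its 95% interval of -0.47 to 0.17 used the residual degrees of freedom alone, fewer than the test. Without wild-type replicate 2, the lowest liver, the fold change was -0.29 with an edgeR adjusted p of 0.096. Without wild-type replicate 1, the highest, it was -0.01 with an edgeR adjusted p of 0.985. Alas1 stood at 42.2, 50.7 and 46.9 CPM in wild-type and 46.1, 46.1 and 43.9 CPM in mutant livers, again with the groups overlapping, and its log2 fold change was -0.04 ± 0.08 (SE).

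The cytosolic enzymes follow. Alad, which joins aminolevulinate into porphobilinogen, stood at 1206, 932 and 1013 CPM in wild-type and 1003, 899 and 946 CPM in mutant livers. One mutant liver lay below the wild-type range, and the log2 fold change of -0.15 ± 0.09 (SE) had an edgeR adjusted p of 0.490. Alad was lower in the mutant of the same replicate number in 3 of 3 pairs, which no label gives. The share of all genes lower in 3 of 3 is not given here. With the replicate block the edgeR adjusted p of Alad was 0.295. Uros, which closes the tetrapyrrole ring, stood at 227, 170 and 179 CPM in wild-type and 197, 184 and 184 CPM in mutant livers, with a log2 fold change of -0.03. Urod, which removes carboxyl groups from uroporphyrinogen, stood at 668, 513 and 589 CPM in wild-type and 550, 547 and 549 CPM in mutant livers. The 3 mutant livers differed by 1.01-fold for Urod, and the 3 wild-type livers by 1.3-fold.

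The last steps take place in the mitochondrion. Cpox, which makes protoporphyrinogen, stood at 1843, 1513 and 1745 CPM in wild-type and 1728, 1706 and 1681 CPM in mutant livers, with means of 1700 ± 169 and 1705 ± 23.6 CPM (SD, n = 3). Ppox, which oxidises it to protoporphyrin, stood at 181, 145 and 151 CPM in wild-type and 182, 147 and 150 CPM in mutant livers. Fech stood at 1649, 1247 and 1475 CPM in wild-type and 1404, 1374 and 1392 CPM in mutant livers. For all 3 the groups overlapped, and the edgeR adjusted p was 0.772 for Fech, 0.987 for Cpox and 0.997 for Ppox.

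**Figure D1:**
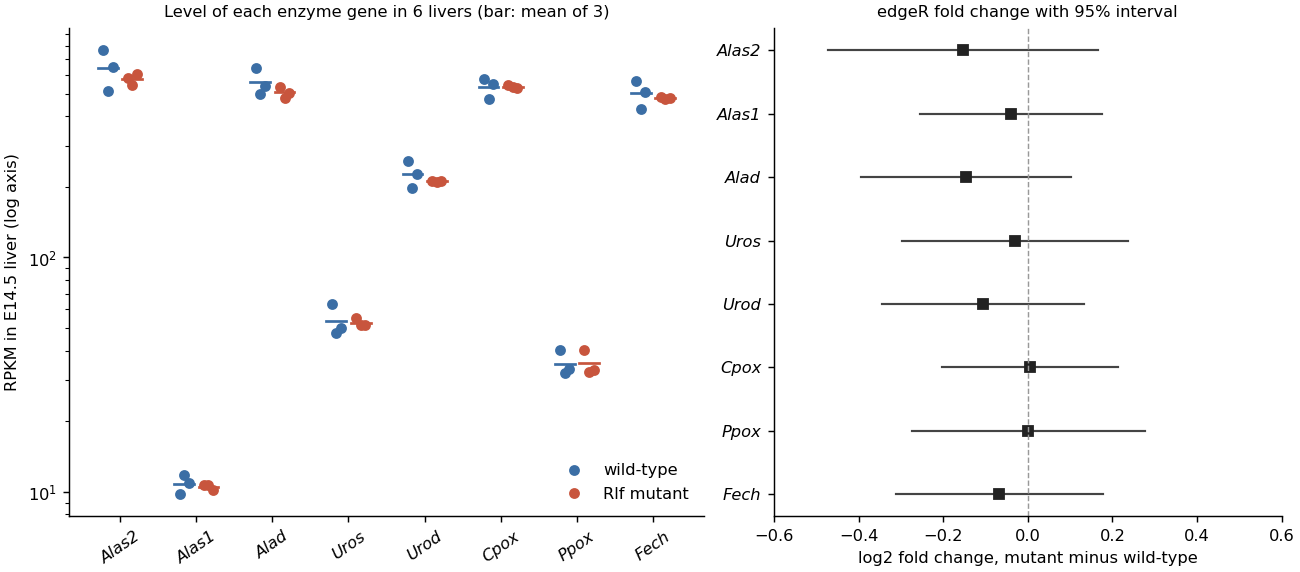
Left, RPKM of each of the 8 genes in 6 E14.5 livers on a log axis, wild-type in blue and Rlf mutant in red, with a bar at the mean of 3 livers. Right, the edgeR log2 fold change of mutant over wild-type with its 95% interval; all 8 intervals include 0, and the 4 genes at the top of the left plot lie between 430 and 765 RPKM.

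The scatter was shared among the genes. Wild-type replicate 1 was the highest of the 6 livers for 6 of 8 genes and wild-type replicate 2 the lowest for 6 of 8, and for 6 of 8 all mutant livers lay within the wild-type range. Alas1 showed the opposite order, with wild-type replicate 2 the highest and wild-type replicate 1 the lowest. Among the wild-type livers, the summed level of the 11 erythroid markers ran in the order of the other genes and against that of Alas1. It was 54019, 29435 and 43774 CPM in wild-type replicates 1, 2 and 3. In the mutant livers it was 37617, 36520 and 39644 CPM, an order that only Alas2 of the 8 shared. Without the globins these sums were 13240, 9841 and 11633 CPM against 11713, 9857 and 11284 CPM. The order among the mutant livers was then that of Alad, Urod, Ppox and Fech, and not that of Alas2. The 7 hepatoblast markers summed to 53412 to 64027 CPM in wild-type and 65805 to 76558 CPM in mutant livers, without overlap, and 0 of 7 was called. Most of that sum was Alb and Afp. The other 5 hepatoblast markers summed to 2948 to 3920 CPM in wild-type and 3375 to 3751 CPM in mutant livers, with overlap. The part of either cell type in the fold changes was not tested, and in whole liver fewer cells of a type and less RNA per cell cannot be told apart.

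Among the 5 genes whose pattern over the 6 livers was most like that of Alas2, by Pearson's r of log2 CPM among 9727 genes with a mean of at least 10 CPM, were Cenpl (r = 0.998), Prdx2 (0.993), Ppm1d (0.993) and Ctse (0.991). For Alas1 they were Rexo4 (0.979), Ddx54 (0.978), Fbxo21 (0.976), Tmem175 (0.972) and Nfx1 (0.971). With 6 livers, 282 genes reached an r above 0.9 with Alas2 and 76 with Alas1, and the livers share their libraries' composition, so these values only describe these libraries.

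Of 25 other genes of heme supply, transport, sensing and breakdown, 22 were tested. Of these 0 rose or fell, where 1.39% of all genes were called, and the median log2 fold change of the 22 was -0.07. The largest differences of the list were in Nr1d1, a heme-binding nuclear receptor at 2.82 CPM in mutant livers (0.52 ± 0.23, SE), in Hebp1, a heme-binding protein (-0.23 ± 0.09), and in Blvrb, a biliverdin reductase (-0.22 ± 0.09), with edgeR adjusted p values of 0.332, 0.288 and 0.294. Without wild-type replicate 1, Hebp1 was at -0.10 and Blvrb at -0.09. Both were lower in the mutant of the same replicate number in 3 of 3, again without a share over all genes. Under the replicate block the edgeR adjusted p was 0.112 for Hebp1 and 0.125 for Blvrb.

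Of the other cell types the liver can hold, 1 of 6 macrophage markers fell (Cd5l, -1.19, edgeR adjusted p = 0.00187), 1 of 4 megakaryocyte markers rose (Pf4, 0.40, 0.0143), and 2 of 5 neutrophil markers fell (Ngp, -0.93, 0.0143, and Elane, -0.76, 0.0493). None of 11 erythroid markers and none of 5 endothelial markers was called, and over all genes 1.39% were. Of the erythroid markers 1 of 11 had a positive fold change (median -0.10), of the endothelial ones 5 of 5 (0.18) and of the megakaryocyte ones 4 of 4 (0.30). In the macrophage list 4 of 6 markers had a positive fold change (median 0.07), and of the neutrophil markers Mpo was at 0.13, Prtn3 at -0.02 and Ctsg at -0.03, none of them called.

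Some bases around the start sites are shown because a factor that drives erythroid genes, GATA1, binds motifs that include AGATAA and TGATAA. These were searched on both strands from 250 bases before to 50 after the start site, and other forms of its motif were not searched. Of all 22359 protein-coding start sites, 16.7% held at least 1 of them. Alas2 and Cpox did, as did Fech, and Alas1, Alad, Uros, Urod and Ppox did not. The lines below are the mm9 reference, 5′ to 3′ on the strand of the gene, with the motif in capitals, and TTATCT and TTATCA are the motifs on the other strand.
Alas2, first motif base at -44 (chrX:146981862-146981891, plus strand): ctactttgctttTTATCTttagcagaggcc
Cpox, first motif base at -86 (chr16:58670223-58670252, plus strand): aaagcgcctatcTTATCAgtccaagcacct
Cpox, first motif base at 4 (chr16:58670313-58670342, plus strand): cagggtgcagtcTTATCTgctctttccggg
Alas2 also held 3 adjoining copies of CACCC, the core of the motif bound by KLF1, right after its start site, and 1 TATAAA 167 bases before it.
Alas2, a CACCC copy at 7 (chrX:146981913-146981942, plus strand): cggaagggggtgGGGTGgggtgggcggggc
CACCC was found at 58% of all start sites and TATAAA at 13.4%. Cpox held 4 copies of CACCC, Fech 2, Alas1, Alad and Urod 1 each, and Uros and Ppox none. The motif CCAAT, at 37.6% of all start sites, occurred 4 times at Ppox and once at Alas1, Alad and Urod. These matches describe the letters in this window and not bound sites.

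Ppox, with 4 copies of CCAAT within 114 bases before its start site, is shown for contrast with Alas2.
Ppox, a CCAAT copy at -74 (chr1:173211374-173211403, minus strand): atccagagctcaCCAATccagaacccgcac

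Methylation of the start sites, taken as all reads over CpGs within 1 kb of the start site with at least 6 reads in every library, was close to 0 in all 12 libraries for 6 of the 8 genes. Ppox ranged from 0.305 to 1.63%, Cpox from 0.389 to 1.74%, Alad from 0.861 to 1.69%, Uros from 1.06 to 1.63%, Urod from 1.04 to 3.39% and Fech from 1.17 to 3.82%. These windows held 54 to 89 CpGs. Alas1 was higher, at 9.13 to 14.2% over 86 CpGs, and the tile just inside the gene, centred 0.956 kb after its start site and reaching into exon 2, stood at 20.9% in E10.5 and 29.3% in E14.5 wild-type libraries.

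Alas2 differed from the others by its sparse CpGs. Its start site had only 10 CpGs listed, of which 4 had enough reads in every library, so it was not tested with the others. With at least 1 read in every library, 9 CpGs remained. In E10.5 embryos 71.9 and 83.9% of reads were methylated in wild-type and 86.2 and 74.6% in mutant libraries. In E14.5 livers the levels were 32.0 and 38.2% in wild-type and 31.7 and 37.3% in mutants, and in E18.5 livers 49.6 and 48.2% in wild-type and 46.2 and 58.3% in mutants. The stages did not overlap and the genotypes overlapped at each stage. The 95% Wilson intervals, which cover counting error only, ran from 59.2 to 81.9% in the lowest embryo and from 32.6 to 44.2% in the highest E14.5 liver.

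With that coverage minimum the fall of 42.8 points at Alas2 from E10.5 embryo to E14.5 liver had an edgeR adjusted p of 8.78e-05, among 57.3% of start sites called. The mutants fell by 45.9 points (adjusted p = 5.29e-05). The later rise of 13.8 points in wild-type was not called (adjusted p = 0.176). In male livers alone, beside the male embryos, the level was 32.0% in wild-type and 31.7% in the mutant, against 71.9 to 86.2% in the embryos. Genotype differences were 2.50, -0.63 and 3.35 points at E10.5, E14.5 and E18.5, with edgeR adjusted p of 0.936, 0.996 and 0.955.

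Differences between the 10 CpGs of Alas2 were not tested. The CpG 89 bases after the start site went from 5 of 7 reads methylated in the pooled E10.5 libraries to 7 of 72 in the E14.5 libraries (9.72%), and then stood at 45.2% at E18.5. The CpG at 19 went from 9 of 9 to 8 of 62. The outermost CpGs went from 76.5 to 51.3% at -856 and from 81.4 to 44.3% at 653. The CpG at -248 was at 63.8% in embryos and at 28.1 and 29.0% in the livers. Depth in the E10.5 embryos was 7 to 17 reads at 6 of these CpGs, which limits each single value.

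**Figure D2:**
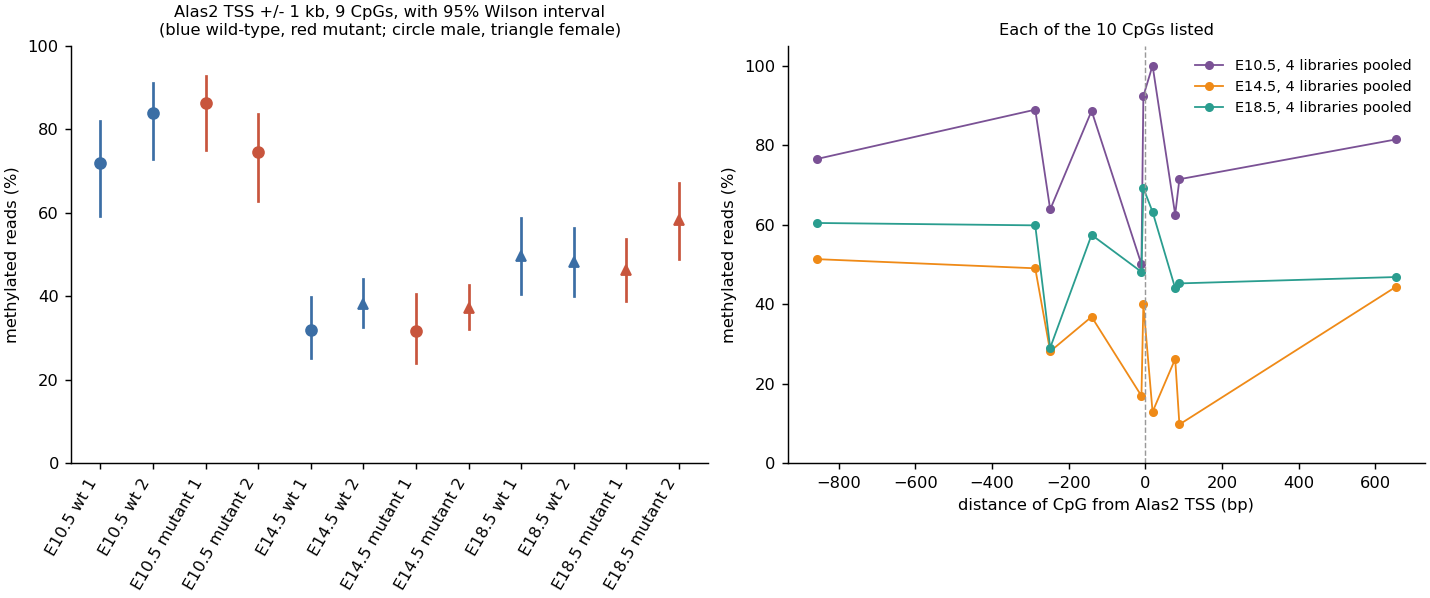
Left, percent of methylated reads over 9 CpGs within 1 kb of the Alas2 start site in each of 12 libraries with 95% Wilson intervals, wild-type in blue and mutant in red, circles male and triangles female. Right, each of the 10 CpGs listed by its distance from the start site, with the 4 libraries of a stage pooled; the E14.5 livers lie at 31.7 to 38.2% on the left, below all other libraries.

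No start site of the 7 tested genes was called different between genotypes. At E10.5, E14.5 and E18.5, 0 of 7 was called, where 1.02%, 0.487% and 0.411% of 19932 start sites were, and the differences ran from -0.90 to 2.0 points. The lowest edgeR adjusted p of a member was 0.456, for Ppox at E18.5. From E10.5 embryo to E14.5 liver, 2 of 7 were called, both lower, where 54.0% of all start sites were called and 38.4% were lower. Fech went from 3.01 and 3.76% to 1.62 and 1.48% (adjusted p = 0.00173), and Cpox from 1.31 and 1.74% to 0.533 and 0.389% (adjusted p = 0.00176). The Cpox call was lost with 500 bases to either side, where the difference was -0.19 points. The start site of Alas1 was 2.95 points higher in liver and not called, and averaged over CpGs rather than reads it was -2.83 points. From E14.5 to E18.5 liver 0 of 7 was called, where 0.547% were.

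Gene bodies, from 1 kb after the start site to the gene end, were highly methylated in embryos and lower in livers. In wild-type, 6 of 8 fell from E10.5 to E14.5, where 94.5% of 18746 gene bodies were called and 91.4% fell, and the median over the 8 was -10.4 points, beside -13.9 over all. A share of 6 of 8 is thus no more than the background. Alas2 had the largest fall of the 8, from 90.3 and 90.3% to 70.9 and 67.9% in wild-type and from 90.4 and 91.5% to 73.1 and 68.5% in mutants. The wild-type difference was -20.9 points (edgeR adjusted p = 4.41e-27), and 18.7% of all gene bodies fell further. The male wild-type liver was 19.4 points below the embryos and the female one 22.4 points below them. Only 51 of the 132 CpGs listed in the Alas2 gene body had enough reads in every library. For Fech 318 of 445 did, and for Alad 145 of 157, so the Alas2 value covers a smaller part of its gene body.

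Alad fell by 18.7 points, from 82.8 and 83.8% to 63.7 and 65.4% in wild-type, with an edgeR adjusted p of 2.0e-29. Its mutant libraries went from 84.2 and 85.0% to 64.0 and 63.0%. Alad was read more deeply than the other genes: its gene body had 1.85 to 2.18 times the median reads per CpG of all gene bodies and its start site up to 2.55 times that of all start sites, in every one of the 12 libraries, deeper than at least 99.6% of windows. The part of this in the Alad values was not tested.

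Uros fell by 15.5 points, from 88.9 and 87.7% to 71.9 and 73.5% in wild-type, and Cpox by 12.5 points, from 90.2 and 91.1% to 78.0 and 78.3%. Alas1 fell by 8.41 points, from 88.4 and 87.8% to 78.4 and 81.0%. For these 3 the stages did not overlap, and the edgeR adjusted p was 7.24e-26, 5.21e-20 and 6.31e-11. Over the whole gene, with the first kb included, the difference of Alas1 was 3.52 points upwards and that of Cpox was -4.02 points and not called.

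The remaining 3 had the smallest differences. Fech fell by 4.25 points, from 82.5 and 81.7% to 77.4 and 78.3% (edgeR adjusted p = 0.00534), a call that was lost without E10.5 wild-type replicate 1 (-3.83 points) and over the whole gene (-0.48 points). Urod went from 75.6 and 72.0% to 69.3 and 72.2% and Ppox from 87.5 and 84.9% to 84.4 and 85.0%, with edgeR adjusted p of 0.154 and 0.279. Of all gene bodies, 93.7% fell further than Ppox.

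From E14.5 to E18.5 liver, 2 of 8 gene bodies rose, where 47.1% of all were called and 46.5% rose. Uros rose by 6.06 points, to 79.0 and 78.6% in wild-type (edgeR adjusted p = 0.00389), and Urod by 5.08 points, to 77.6 and 74.0% (adjusted p = 0.0350). Neither was called without E14.5 wild-type replicate 1, or without either E18.5 wild-type library, and Urod was not called without E14.5 mutant replicate 2 or with sex as a covariate. Uros was not called with the 5-prime-most start site, and neither was called over the whole gene. Alas2 stood at 70.4 and 74.4%, 3.03 points above E14.5, and Alas1 at 78.3 and 77.1%, 2.04 points below it, with edgeR adjusted p of 0.203 and 0.257.

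No gene body was called different between genotypes at any stage (0 of 8), where 2.75%, 1.16% and 1.08% of all were at E10.5, E14.5 and E18.5. Differences of the 8 had medians of 0.57, -0.07 and 1.25 points, beside medians over all gene bodies of 1.03, 1.56 and 1.90 points. Uros was higher in the mutants at each stage, by 1.92, 2.53 and 2.43 points, with overlap at E18.5. So were Alas1, by 0.54, 0.75 and 2.31 points, with overlap at E14.5, and Alas2, by 0.70, 1.39 and 1.70 points, with overlap at E14.5 and E18.5. Uros was called at E10.5 with each tissue fitted alone (edgeR adjusted p = 0.0487), a fit that called 2087 of 18744 gene bodies. The largest difference downwards was in Cpox at E18.5, where the wild-type livers stood at 80.2 and 80.3% and the mutants at 77.7 and 76.9% (edgeR adjusted p = 0.429). Without E18.5 mutant replicate 2, Uros (4.80 points), Alas1 (3.58) and Alas2 (5.40) were called at E18.5, in a fit that called 8583 of 18746 gene bodies. The mutant arm is then 1 library, assumed to vary like the other groups, and that library was at 65.5% over all CpG reads, beside 61.4 to 61.7% in the other E18.5 livers. A change of the genotype difference with stage was not detected, with 0 of 8 gene bodies and 0 of 7 start sites called in either test of the interaction, where 0% of start sites and 0.0480% and 0.00533% of gene bodies were called.

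**Figure D3:**
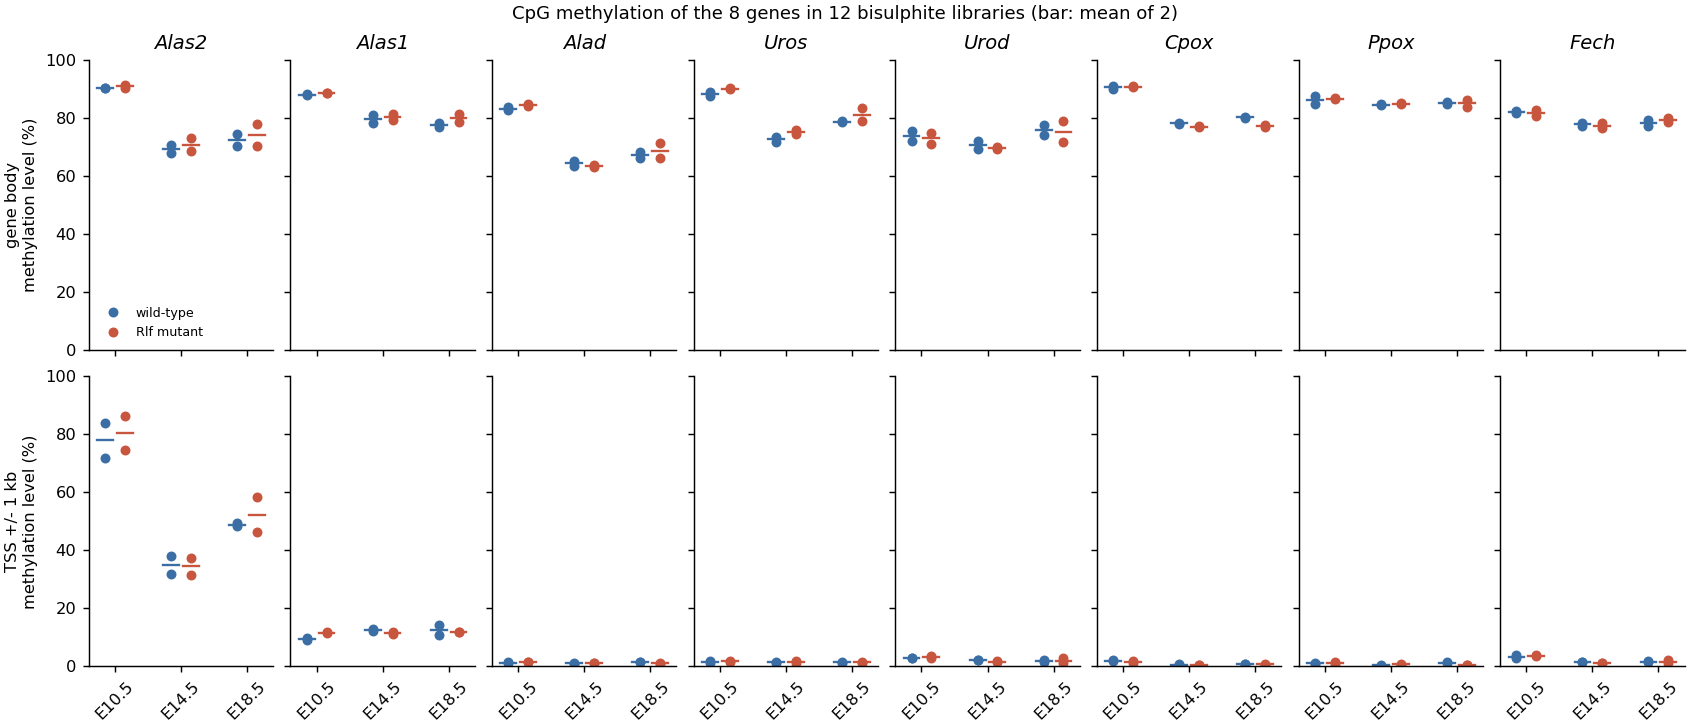
Methylation level in percent of the gene body (top) and of the start site ± 1 kb over CpGs with at least 1 read in every library (bottom) for the 8 genes at E10.5 (whole embryo), E14.5 and E18.5 (liver), with 1 point per library and a bar at the mean of 2. The start site of Alas2 is the most methylated of the 8, at 71.9 to 86.2% in the embryos, and the gene bodies of Alas2, Alad and Uros lie 15.5 to 20.9 points lower in wild-type E14.5 livers than in embryos.

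To see where along a gene the level differed, 1 kb tiles were read in each gene and 5 kb to either side. Of 161 tiles, 12 (7.45%) were at least 40 points lower in wild-type E14.5 liver than in wild-type E10.5 embryos. Genome-wide 1.46% of 909676 tiles were. The same 12 were so in the mutants, as were 9868 of the 13303 such tiles genome-wide. The median fall went the other way, with 5.69 points over the 161 tiles beside 17.2 points over all tiles. The 40 points were chosen after the tiles were seen, neighbouring tiles share a gene, and no test was made. They lay in or near 5 genes: 4 in Fech, 3 in Uros, 2 each in Alad and Cpox and 1 in Alas2. None lay in Alas1, Urod or Ppox. In 11 of the 12 the wild-type level was higher again at E18.5, as in 12195 of the 13303 such tiles genome-wide, and in 2 of the 11 the libraries overlapped, in Fech at 10.2 kb (0.142 points higher) and in Cpox at 2.18 kb.

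In Uros the tile centred 6.46 kb after the start site, over exon 2 and parts of introns 1 and 2, had 84.9 and 85.3% in wild-type embryos. In E14.5 livers it had 14.9 and 22.9% in wild-type and 24.2 and 19.8% in mutants, and in E18.5 livers 42.5 and 40.7% in wild-type and 51.0 and 36.1% in mutants. This was the largest fall of the 12, at 66.2 points. A second low tile followed, centred 10463 bases after the start site, over exon 5, with 28.9% in wild-type and 37.7% in mutant E14.5 livers, after 83.2 and 88.5% in embryos. Uros is known to have a second, erythroid promoter downstream of its housekeeping one. In the annotation 1 transcript of Uros, with 147 coding bases, starts in the first of these tiles, at 140894299.

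In Alad the low tiles lay in intron 1. The tile at 2.45 kb had 85.6 and 85.0% in wild-type and 84.7 and 89.5% in mutant embryos, and 20.3 and 22.8% in wild-type and 23.2 and 21.6% in mutant E14.5 livers. At E18.5 it had 29.9 and 33.4% in wild-type, and the mutant mean was 36.6%. The tile at 4.45 kb stood at 87.7% in embryos and 45.9% in E14.5 livers of wild-type. The tile between the start site and the first of these, at 1.45 kb, was 36.2 points lower in liver, just under the 40 points used.

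In Cpox the fall lay on both sides of the unmethylated start site. The tile at -0.82 kb had 66.0 and 58.5% in wild-type embryos, 12.7 and 9.15% in E14.5 livers and 19.3 and 27.0% in E18.5 livers. The tile at 2.18 kb, over exon 2, had 83.5 and 89.5% in wild-type embryos, 36.6 and 37.2% in E14.5 livers and a mean of 41.0% in E18.5 livers, 1 of which was below both E14.5 livers. In Alas2 only 7 tiles had enough CpGs, none of them within 10 kb of the start site. The tile at 17.6 kb, over exon 9 and parts of introns 8 and 9, had 80.5 and 88.9% in wild-type embryos, 28.3 and 50.7% in E14.5 livers and 56.7 and 67.1% in E18.5 livers. The E14.5 liver at 28.3% was male and that at 50.7% female, beside male embryos and female E18.5 livers. In mutant E14.5 livers the male stood at 37.84% and the female at 46.35%. The part of sex in this X-linked tile was not tested. All 7 tiles also lie within Apex2. An erythroid enhancer is known in intron 8 of Alas2.

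The bases around GATA motifs in these tiles are shown because the tiles fall in the tissue that holds erythroblasts. Of the 12 tiles 10 held AGATAA or TGATAA on either strand, beside 63.3% of 909678 tiles, which 1 kb of sequence often does by its length. The 2 without one were Uros tiles centred at 7463 and 10463 bases. The tile of the largest fall held 1 copy of each, and the Alad tile at 2.45 kb likewise.
Uros, first motif base at 6713 (chr7:140894234-140894263, minus strand): tctccctcagccTTATCAgtgacagagggc
Uros, first motif base at 5983 (chr7:140894964-140894993, minus strand): acatgtttgattAGATAAccatgtaattcg
Alad, first motif base at 2824 (chr4:62178111-62178140, minus strand): gtaacttcaatgAGATAAagtactgccttt
Alad, first motif base at 4293 (chr4:62176642-62176671, minus strand): cagctagccacaAGATAAgccagtgccaca
Cpox, first motif base at -784 (chr16:58669525-58669554, plus strand): aaaagataattcTTATCTttccttctcttc
Alas2, first motif base at 17972 (chrX:146999878-146999907, plus strand): tttgcaacaaacTGATAAttgttccttcaa
The Cpox tile before the start site held 3 matches, 2 of which lie 9 bases apart. No value here bears on whether a factor bound them.

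In Fech, which completes the chain, the 4 tiles lay at -2.78, 1.22, 6.22 and 10.2 kb from the start site, in the upstream sequence, in intron 1 and over exons 2 and 3. The tile at 1.22 kb had 71.5 and 80.3% in wild-type and 73.0 and 76.5% in mutant embryos, 23.1 and 27.0% in wild-type and 33.6 and 25.3% in mutant E14.5 livers, and 38.2 and 35.9% in wild-type and 44.5 and 42.9% in mutant E18.5 livers. The tile before the start site had 77.8% in wild-type embryos, 27.3% in E14.5 livers and 41.7 and 38.3% in E18.5 livers. A tile in intron 6, 22.2 kb after the start site, went the other way, from 1.72 and 2.49% in wild-type embryos to 34.6 and 30.2% in E14.5 and 29.6 and 30.5% in E18.5 livers.

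**Figure D4:**
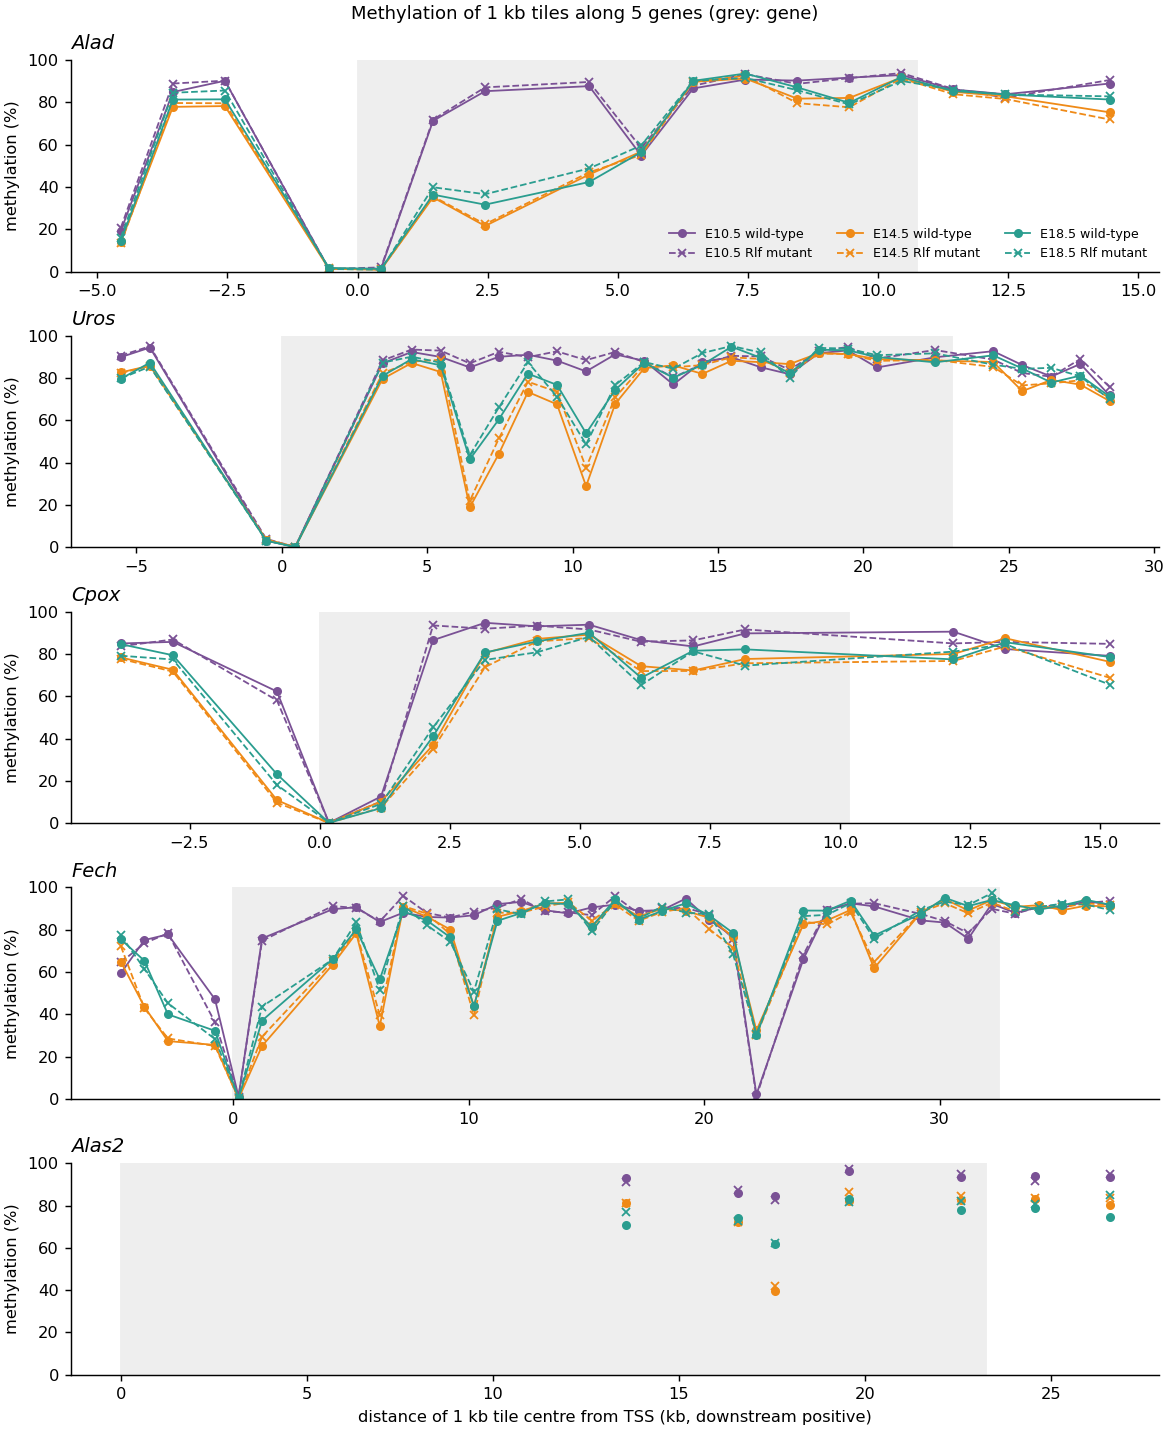
Mean methylation in percent of 1 kb tiles by the distance of their centre from the start site along Alad, Uros, Cpox, Fech and Alas2, by stage (colour) and genotype (circles and full lines wild-type, crosses and dashed lines mutant), with the gene in grey; lines join tiles that pass the CpG minimum and are left out for Alas2, where few do. Inside the genes and beyond the start-site tiles, the wild-type E14.5 livers dip to 18.9% in Uros and 21.6% in Alad, and wild-type and mutant lie close together.

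The genotypes were also compared tile by tile in the 4 E14.5 livers. Of the 161 tiles 0 was called, which needed more than 15 points besides an adjusted p under 0.05, where 1169 of 909660 tiles were (0.129%), and 10 of 161 had an unadjusted p under 0.05, beside 81702 of all tiles tested. The median difference over the 161 was 0.05 points, beside 1.87 points over all tiles. The tile nearest to a call lay at -2.04 kb from the Alas1 start site, with 51.5 and 50.2% in wild-type and 64.4 and 60.3% in mutant livers, a difference of 11.5 points with an edgeR adjusted p of 0.0697. At E18.5 the same tile stood at 53.4 and 60.4% in wild-type and 65.5 and 65.3% in mutant livers. In E10.5 embryos it stood at 81.1 and 80.1% against 81.5 and 86.0%. The genotypes did not overlap at any stage, but at E10.5 they were apart only by 81.1 against 81.5%. The tile was picked for its E14.5 difference, and each genotype had 2 libraries.

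The largest difference of each other gene was smaller: 8.77 points for Uros in the tile over exon 5, -7.54 for Cpox 15.2 kb after the start site, 7.36 for Fech at -4.78 kb, -5.85 for Urod, 4.45 for Alas2, -4.43 for Alad and -3.08 for Ppox, with edgeR adjusted p between 0.315 and 0.791. In the Uros tile both E14.5 mutants, at 39.2 and 36.2%, were above both wild-types, at 27.5 and 30.4%. At E18.5 the order was the other way, with means of 53.9% in wild-type and 48.7% in mutants. The Uros tiles centred 5463 to 11463 bases after the start site all had higher means in E14.5 mutants than in wild-type. These differences ran from 3.07 to 8.77 points, and none was called. The 3 Uros tiles with an edgeR unadjusted p under 0.05 lay among them. The genotypes overlapped in the tiles at 6463 and 7463 bases. This run of tiles was picked after its values were seen.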

How the data were processed

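The authors deposited counts of methylated and unmethylated reads per CpG, mapped by Bismark with Bowtie2 to an mm9 genome that carried FVB substitutions, with duplicates removed and strands merged, and raw counts per gene made with TopHat and HTSeq without strand. The percent column deposited with the CpG counts was rounded by the authors and not used. H3K4me1 ChIP-seq was not analysed here. The members and lists were chosen with earlier results of these data known. GENCODE vM1 on NCBIM37 gave the genes, and the start site is that of the transcript with the longest coding sequence. Named by rule are the 8 genes, the 3 pathway genes with the largest fold change and every one called, the largest tile difference of each gene, and the 5 genes most alike, of which some are not reported here. The tiles that fell by 40 points, the run of Uros tiles and the markers were named after their values were seen. RNA counts were tested with edgeR 4.0.16 (TMM, filterByExpr, quasi-likelihood, all genes), and methylated and unmethylated counts with the same model and 1 intercept per library, over windows with at least 5 CpGs of at least 6 reads in all 12 libraries. Dispersions were set in 20 bins of methylation level. Tiles needed 8 CpGs. Adjusted p is Benjamini-Hochberg over all windows. The model was tested on simulated data. Exact permutation cannot go below 0.333 with 2 against 2, or 0.1 with 3 against 3. In RNA-seq same-numbered livers deviated together (correlations 0.125, 0.226 and 0.409), so their number was used as a block. No label pairs them, and replicate 3 is the only female of each genotype. Why they deviated together was not tested. Depth is the counts and reads given in the results. Wilson intervals cover counting error only, and those of RNA fold changes rest on the spread between livers. No pair of RNA libraries agreed within sampling noise. Alternatives were DESeq2 1.42.0, other scalings, coverage minimums, windows, covariates, blocks and leaving out each library. R 4.3.3, python 3.11.15 and samtools 1.23.1 were used. Where nothing says that samples came from separate litters, p-values measure the spread between these samples.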

Additional observations from a re-analysis of the deposited data

How the results depend on the processing

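For RNA, 0 of 8 genes was called under all 12 alternatives. With the replicate block, which pairs the livers by number only, it was 0 again although 466 genes were called in all against 197. With no filter on low counts 532 genes were called, and leaving out 1 liver gave 66 to 224. No member tile was called in any of the 8 alternatives tried for tiles, in which 861 to 3846 tiles were called, but the adjusted p was under 0.05, with under 15 points, for 1 without wild-type replicate 2 and 2 without mutant replicate 2. For methylation, same-numbered libraries correlated at 0.0645, 0.434 and -0.0341 over start sites at E10.5, E14.5 and E18.5, so only the E14.5 pairs deviated together. At E14.5 replicate 1 was male and replicate 2 female in each genotype, whereas the E10.5 libraries were all male and the E18.5 libraries all female. The replicate block for methylation gave 1 called start site from E14.5 to E18.5 (Ppox) in place of 0, with 1191 in place of 109 over all genes. It also took the call from Fech in the gene body from E10.5 to E14.5. From E10.5 to E14.5, the number of start sites called was 2, and 4 with CpGs of at least 1 read (Alas2 and Ppox added), 4 with 2 kb to either side (Alas2 and Alad added) and 1 with 500 bases. Over all genes 12019 of 20968, 11514 of 20908 and 7510 of 18515 were called there, and Alas2 was tested only in the first and second of these. From E14.5 to E18.5 the number of gene bodies called was 2, where 47.1% of all were called. It was 1 with the 5-prime-most start site, 1 with sex as a covariate and 0 over the whole gene. The shares of all gene bodies called under these alternatives are not given here. Leaving out 1 library gave 0 to 2. At E10.5 1 gene body differed by genotype (Uros, 1.92 points) with each tissue fitted alone, and leaving out 1 library gave 0 to 3 at E18.5, where 8583 of all gene bodies were called without mutant replicate 2. Over the whole gene the difference of Alas1 from E10.5 to E14.5 turned to 3.52 points. The cause of these changes was not tested. A single dispersion for all windows was added after seeing the data and moved no count of members beyond 1.5 times. Averaging percents per CpG in place of pooling reads moved 29 of the member differences by more than the spread between replicates. Depth was lowest for Alas2, whose start site had 57 to 330 reads in a library.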
